A study of Mus musculus with 11 samples.

Results

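Tbx21 and Eomes encode T-bet and Eomesodermin, the T-box transcription factors that CD8 T cells use. Their loci held 31 of the 111041 open chromatin regions found across 11 mouse CD8 T cell libraries by ATAC-seq, in which a transposase inserts sequencing adapters where DNA is accessible. A region was counted for a gene when that gene had the nearest RefSeq protein-coding span within 100 kb (mm10), with peaks overlapping by at least 1 bp merged across libraries. Tbx21 received 9 regions, built from 46 peaks, and Eomes received 22 regions, built from 122 peaks. Assignment used distance alone, so a region may act on another gene.

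T-box proteins bind DNA through a shared domain, the T-box. In CD8 T cells T-bet is known for driving effector differentiation, interferon-gamma production and cytotoxic genes. Eomes shares many of those targets and is known for sustaining memory cells through interleukin-15 receptor signalling.

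Every library came from spleen CD8 T cells with a YFP reporter for Tcf7, the gene of TCF-1, a factor of naive and memory T cells. Cells activated in culture were sorted by the reporter at day 3, cultured further and sorted again at day 9. This gave 2 libraries of cells high at both sorts (high_to_high), 3 of cells that were low at day 3 but high at day 9 (low_to_high) and 3 of cells low at both (low_to_low). The effector library (3 days of culture activation), the antigen-experienced library (splenocytes positive for CD44, CD62L and YFP) and the naive library (splenocytes negative for CD44, positive for CD62L and YFP) were 1 each. Differences that rest on these single libraries have no replicate check. The labels used here give neither mouse age nor strain, and they leave unsaid if replicates were separate animals, cultures or preparations. The p-values may therefore measure only the spread between preparations.

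Libraries held 20.8 to 59.97 M tags, and 9.01 to 15.8% of tags lay in peaks. At day 9 that share was 9.01 to 10.2% for YFP-high cells (5 libraries) and 10.4 to 12.5% for YFP-low cells (3 libraries). It was 9.08% in the effector library, 15.8% in the antigen-experienced library and 15.01% in the naive library. The CD8 lineage genes Cd8a and Cd8b1 and the general T cell gene Cd3e had open regions in all 11 libraries. Cd3g, also a general T cell gene, had them in all but low_to_high replicate 1. Regions near genes of other lineages were present as well, since 3 to 4 of 4 natural killer cell markers, 3 to 4 of 4 CD4 and regulatory T cell markers, 3 to 4 of 5 myeloid markers and 2 to 3 of 5 B cell markers had a region in each library. Cd79a (B cells) and Csf1r (myeloid cells) had no region in any library. In sorted bulk cells, more open cells and more signal per cell cannot be told apart.

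The values below are normalized tag counts, the tags in a peak window per 10 M tags of a library. A region missing from a list was not called there, which does not show that it was closed. Regions are named by gene and by the distance of their centre from the start site, with + for downstream. The 300 bases around the start sites (250 before, 50 after) are shown because a called region overlapped part of the Tbx21 window and none overlapped the Eomes window. They are RefSeq sequences of GRCm38.p6, at chr11:97115282-97115581 (minus strand) for Tbx21 and chr9:118477939-118478238 (plus strand) for Eomes, written 5′ to 3′ along the gene, and capitals mark 3 overlapping GC boxes, which lie just upstream of that called region.
Tbx21 promoter: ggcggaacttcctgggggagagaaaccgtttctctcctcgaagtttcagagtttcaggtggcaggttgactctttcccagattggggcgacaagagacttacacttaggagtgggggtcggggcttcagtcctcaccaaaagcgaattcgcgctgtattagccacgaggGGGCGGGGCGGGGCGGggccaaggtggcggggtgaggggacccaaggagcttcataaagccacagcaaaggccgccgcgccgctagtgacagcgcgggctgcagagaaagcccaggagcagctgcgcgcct
Eomes promoter: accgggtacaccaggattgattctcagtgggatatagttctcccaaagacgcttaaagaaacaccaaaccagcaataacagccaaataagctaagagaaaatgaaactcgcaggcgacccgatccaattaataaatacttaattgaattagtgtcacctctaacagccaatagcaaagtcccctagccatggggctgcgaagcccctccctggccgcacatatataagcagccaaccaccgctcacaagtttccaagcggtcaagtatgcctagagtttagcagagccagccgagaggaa

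The promoter windows differed in base composition. The Tbx21 window was 62% G or C, and 75.6% of the 27025 promoters had a lower value. The Eomes window was 47.3% G or C, with 30.4% of promoters lower and a median of 52.7%. Of 7 motifs searched on both strands, the GC box GGGCGG matched 3 times in the Tbx21 window, with the first bases of the matches at -81, -76 and -71 from the start site. It was found in 35.9% of all promoters. The E-box CANNTG matched 2 times in the Tbx21 window and was found in 72.2% of promoters. The Eomes window held no match to either motif. Neither window held the T-box element TCACACC (3.96% of promoters), the TCF/LEF element ATCAAAG (3.72%), the AP-1 element TGANTCA (7.93%), the RUNX element AACCACA (5.37%) or the ETS element CCGGAA (15.2%).

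The loci were laid out differently. Of the 9 Tbx21 regions, 6 lay inside the gene (chr11:97098007-97115331, minus strand), 1 upstream and 2 downstream. Of the 22 Eomes regions, 18 lay upstream, 2 inside the gene (chr9:118478186-118486132, plus strand) and 2 downstream. The upstream series of Eomes began with a region at -96.1 kb. All 11 libraries shared 2 of 9 Tbx21 regions and 3 of 22 Eomes regions, against 21.1% of all regions. All 8 day 9 libraries shared 2 and 7, against 31.0% of all regions. A single library held 4 Tbx21 and 6 Eomes regions, against 36.6% of all regions. Of the effector library's own regions, 2 of 5 at Tbx21 and 2 of 6 at Eomes were found nowhere else, against 39.4% of all effector regions.

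**Figure D1:**
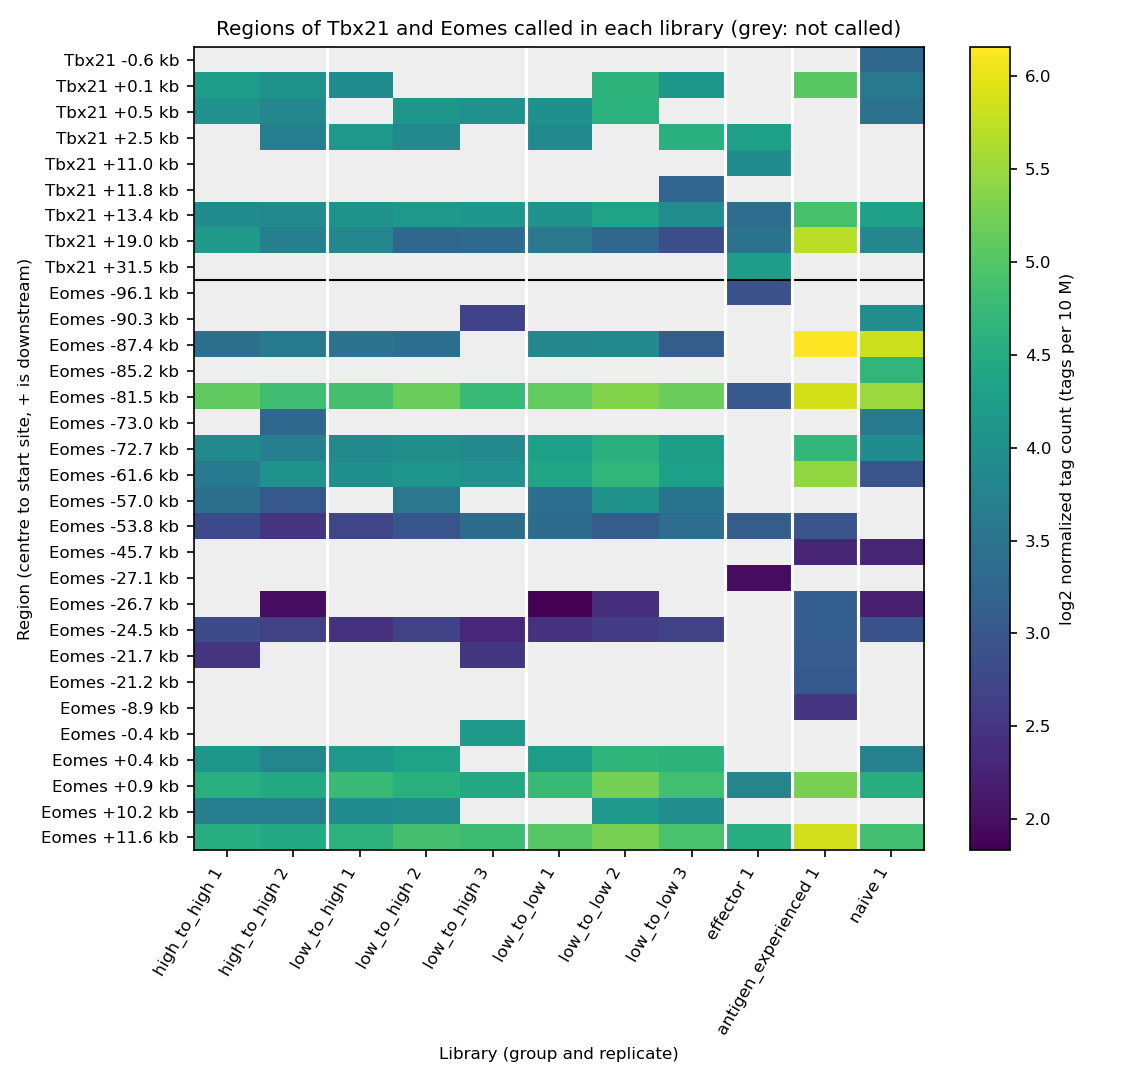
Each row is a region of Tbx21 or Eomes, by distance of its centre from the start site in kb, and each column is a library. Colour gives the log2 normalized tag count (tags per 10 M) and grey means not called. The effector column held 6 of the 22 Eomes regions, fewer than any other library, which held 10 to 13.

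At the Tbx21 start site, the region that overlaps the printed window (Tbx21 +0.1 kb, chr11:97115126-97115394) was called in 7 libraries. It measured 18.8 and 16.4 in high_to_high, 15.3 in low_to_high replicate 1, 24.7 and 17.4 in low_to_low replicates 2 and 3, 33.2 in antigen-experienced cells and 12.0 in naive cells. The next region, Tbx21 +0.5 kb (chr11:97114624-97114986), measured 16.3 and 14.3 in high_to_high, 17.5 and 16.3 in low_to_high replicates 2 and 3, 16.1 and 24.1 in low_to_low replicates 1 and 2, and 10.9 in naive cells. Each day 9 library therefore had a called region within 1 kb of the Tbx21 start site, at +0.1 kb, +0.5 kb or both, and only the first of these spans the site itself. The effector library had none within 1 kb of the start site, the only library of the 11 without one. The peak caller's minimum distance between peaks was 264 to 346 bp. Tbx21 +0.1 kb and +0.5 kb were called together in both high_to_high libraries, in low_to_low replicate 2 and in naive cells. The part of that minimum distance in the other lists, where only 1 of them was called, was not tested.

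Inside Tbx21, the region called in every library was Tbx21 +13.4 kb (chr11:97101853-97102097). It measured 15.3 and 14.8 in high_to_high, 16.4, 18.1 and 17.3 in low_to_high, 16.6, 20.1 and 15.5 in low_to_low, 10.4 in the effector library, 30.0 in antigen-experienced cells and 19.9 in naive cells. The antigen-experienced library was highest and the effector library lowest. Tbx21 +2.5 kb (chr11:97112694-97112934) was called in high_to_high replicate 2 (13.0), in low_to_high replicates 1 and 2 (17.6 and 14.6), in low_to_low replicates 1 and 3 (15 and 23.8) and in the effector library (19.4). It was missing from both splenocyte lists. The remaining regions inside the gene were each called once, at +11 kb in the effector library (15.2) and at +11.8 kb in low_to_low replicate 3 (9.45).

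The widest spread at Tbx21 was found past the end of the gene. Tbx21 +19.0 kb (chr11:97096144-97096451), 1556 bp beyond the gene end, measured 17.8 and 13.0 in high_to_high, 14.3, 9.75 and 10.1 in low_to_high, 11.8, 9.56 and 7.30 in low_to_low, 11.2 in the effector library, 52.4 in antigen-experienced cells and 14.3 in naive cells. The antigen-experienced value lay far above the other 10 libraries, and the 2 high_to_high values lay above all 3 low_to_low values, as at 1.57% of all regions called throughout day 9. The farthest Tbx21 region, +31.5 kb (14047 bp beyond the gene end), was called in the effector library alone, at 19.1. The naive library alone held the upstream region at -0.6 kb (9.73).

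Upstream of Eomes, the region called in every library was Eomes -81.5 kb (chr9:118396512-118396782). It measured 34.3 and 28.6 in high_to_high, 29.4, 36.1 and 27.1 in low_to_high, 34.8, 40.7 and 36.1 in low_to_low, 8.27 in the effector library, 58.6 in antigen-experienced cells and 45.6 in naive cells. The effector value was below all others. Its neighbour Eomes -87.4 kb (chr9:118390668-118390993) was high in the splenocyte libraries and low at day 9. It measured 71.4 in antigen-experienced and 56.5 in naive cells, 8.59 to 14.8 in the 7 day 9 libraries in which it was called, and was not called in low_to_high replicate 3 or in the effector library.

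Eomes -72.7 kb and Eomes -61.6 kb were called in every library except the effector one. Eomes -72.7 kb (chr9:118405400-118405676) measured 14.7 and 13.0 in high_to_high, 14.9, 15.7 and 14.6 in low_to_high, 19.4, 24.0 and 19.1 in low_to_low, 25.8 in antigen-experienced cells and 15.3 in naive cells. Eomes -61.6 kb (chr9:118416466-118416798) measured 12.2 and 16.4 in high_to_high, 15.9, 17.3 and 16.3 in low_to_high, 20.7, 25.7 and 19.3 in low_to_low, 43.7 in antigen-experienced cells and 7.86 in naive cells. At both, all 5 YFP-high values of day 9 lay below all 3 YFP-low values on the deposited scale, as did 18.2% of all regions called throughout day 9. The naive library was inside the day 9 range at -72.7 kb and below it at -61.6 kb.

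Eomes -53.8 kb and -24.5 kb were the weakest of the regions called throughout day 9. Eomes -53.8 kb (chr9:118424245-118424614) measured 6.97 and 5.67 in high_to_high, 6.66, 7.95 and 10.3 in low_to_high, 10.3, 8.60 and 10.5 in low_to_low, 8.65 in the effector library and 7.88 in antigen-experienced cells. It was not called in naive cells. Eomes -24.5 kb (chr9:118453470-118453838) measured 7.17 and 6.34 in high_to_high, 5.55, 6.32 and 5.04 in low_to_high, 5.53, 5.97 and 6.45 in low_to_low, 8.73 in antigen-experienced cells and 7.60 in naive cells, and was not called in the effector library. Eomes -57.0 kb was called in 6 day 9 libraries (8.17 to 16.6) and in no other library. Of the regions found in 1 group only, the antigen-experienced library held those at -21.2 kb (8.10) and -8.9 kb (5.75), the effector library those at -96.1 kb (7.52) and -27.1 kb (3.95), the naive library that at -85.2 kb (25.5), and low_to_high that at -0.4 kb (18, replicate 3). The remaining 5, at -90.3, -73.0, -45.7, -26.7 and -21.7 kb, were called in 2 to 5 libraries, at 3.56 to 15.5.

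A region inside Eomes and a region past its end were called in all 11 libraries. Eomes +0.9 kb (chr9:118478982-118479289), inside the gene, measured 23.4 and 21.9 in high_to_high, 27.3, 23.8 and 21.8 in low_to_high, 27.2, 38.1 and 28.8 in low_to_low, 13.9 in the effector library, 38.8 in antigen-experienced cells and 23.1 in naive cells. Eomes +11.6 kb (chr9:118489621-118489928), downstream, measured 23.0 and 22.3 in high_to_high, 24.5, 29.6 and 28.3 in low_to_high, 32.6, 38.8 and 30.3 in low_to_low, 23.1 in the effector library, 57.9 in antigen-experienced cells and 29.3 in naive cells. The effector value was the lowest of all at +0.9 kb and lay just above the 2 high_to_high values at +11.6 kb. Eomes +0.4 kb was called in 7 day 9 libraries (13.9 to 25.2) and in naive cells (13.3), and Eomes +10.2 kb in 6 day 9 libraries only (12.8 to 17.7).

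**Figure D2:**
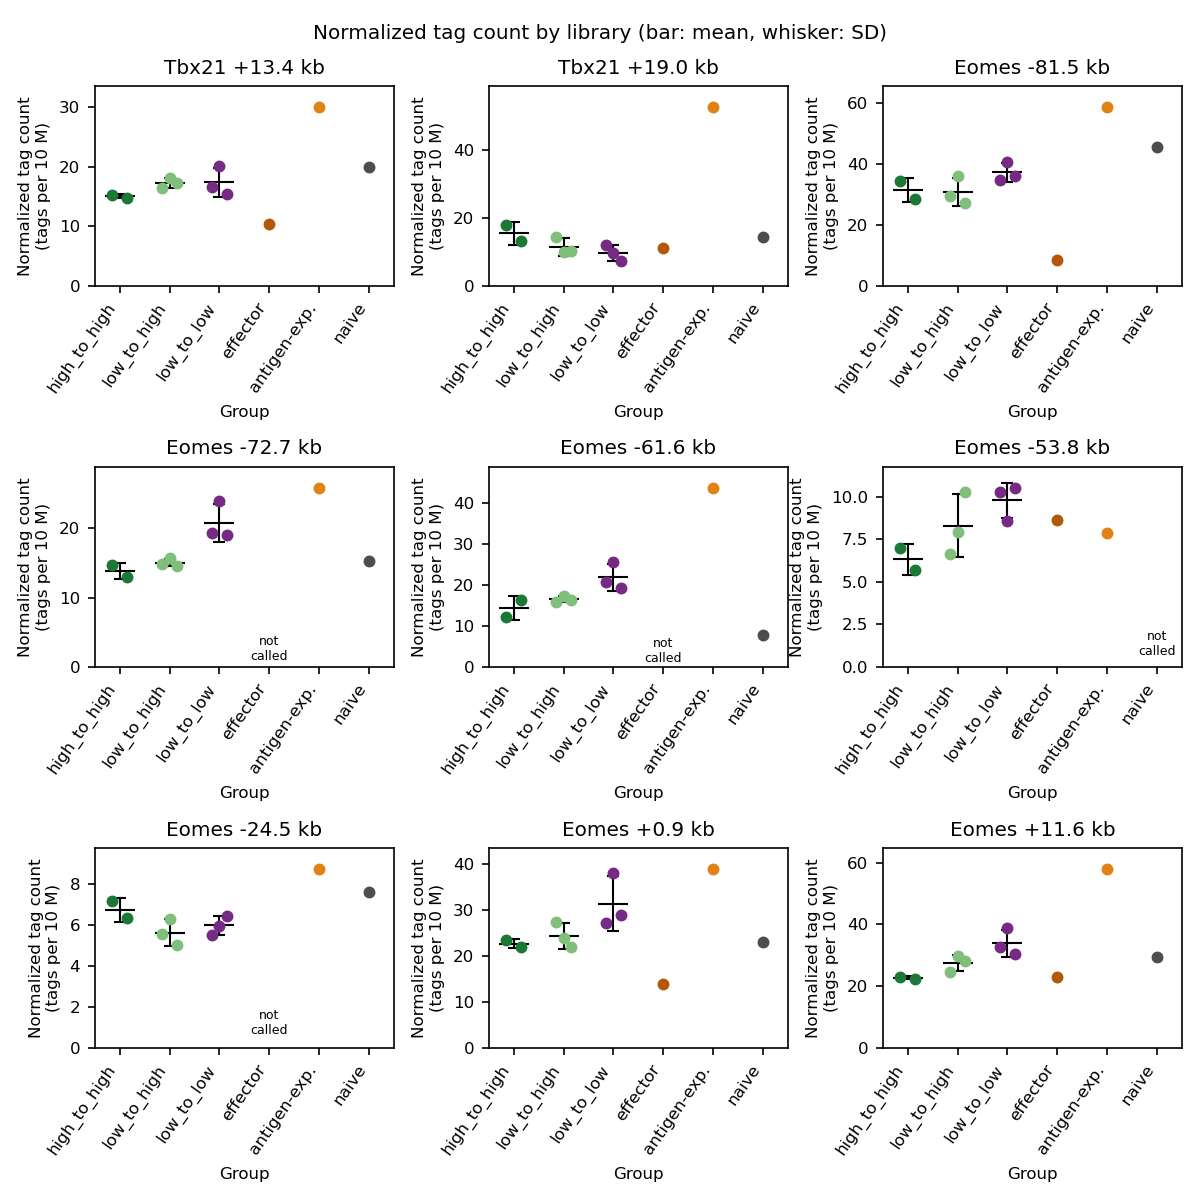
Normalized tag counts (tags per 10 M) of the 9 regions called in all 8 day 9 libraries, with a point per library, a bar at the mean and a whisker of 1 SD for groups of 2 or 3 libraries. The antigen-experienced library was highest in every panel except that of Eomes -53.8 kb. On this deposited scale the median of all shared regions was also lower at day 9 than in that library, by -0.59 in log2. With centring, the day 9 mean differed from that library by -1.53 at Tbx21 +19.0 kb to 0.64 at Eomes -53.8 kb, with 0.03 at Eomes +0.9 kb. The effector library was lowest at Tbx21 +13.4 kb, Eomes -81.5 kb and Eomes +0.9 kb. It had no call at Eomes -72.7, -61.6 and -24.5 kb.

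Fewer Eomes regions were called in effector cells than in splenocytes. Of 13 naive Eomes regions, the effector library held 3 (23.1%), and of 5 naive Tbx21 regions it held 2 (40%), against 56.3% of all naive regions. It held 4 of 13 antigen-experienced Eomes regions (30.8%) and 2 of 3 Tbx21 regions, against 62.3% of all antigen-experienced regions. The effector library had 53.2 M tags and a list of 66117 peaks, against 37.5 M tags and 57882 peaks for the naive library. The share of tags in peaks was 9.08% in effector cells, against 15.01% in naive cells. The part of these differences in the missing regions was not tested.

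Where effector and naive cells both had a region, the levels were compared on log2(value + 1), centred on the median of all regions shared by the libraries. The centring removed a shift of -0.71 between them. Peaks spanned 172 bp in effector cells and 132 bp in naive cells. Of 5 regions shared at the loci, 1 was past 2-fold lower, Eomes -81.5 kb, at 8.27 in effector and 45.6 in naive cells (centred log2 difference -1.62, 0.326-fold). Across all 32333 shared regions 6.10% were past 2-fold lower and 14.6% higher. None of the 5 was past 2-fold higher. The other differences were 0.38 at Tbx21 +19.0 kb, -0.16 at Tbx21 +13.4 kb, 0.02 at Eomes +0.9 kb and 0.38 at Eomes +11.6 kb.

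In antigen-experienced cells 3 of 12 shared regions were past 2-fold higher than in naive cells, against 3.69% of all 44068 shared regions, and none was past 2-fold lower (1.07% of all). Eomes -61.6 kb was at 43.7 in antigen-experienced and 7.86 in naive cells, a centred log2 difference of 2.17 (4.50-fold). Tbx21 +19.0 kb was at 52.4 and 14.3 in the same order (1.64, 3.12-fold), and Tbx21 +0.1 kb at 33.2 and 12.0 (1.23, 2.35-fold). The other 9 differences ran from -0.17 to 0.80. The naive cells had a called region at 3 of 3 antigen-experienced Tbx21 regions and 9 of 13 Eomes regions, against 87.8% of all. In the reverse direction, antigen-experienced cells had 3 of 5 naive Tbx21 and 9 of 13 naive Eomes regions, against 76.8% of all. Of the other lineages, the summed B cell marker regions were also larger in antigen-experienced than in naive cells (178 and 66.3). The sums of natural killer cell markers (594 and 536) and of CD4 and regulatory T cell markers (314.5 and 273.9) were larger too. That of myeloid markers was smaller (222 and 238). Of 5 shared B cell marker regions, 3 were past 2-fold higher, all inside Pax5. The B cell genes Cd79a and Ms4a1 had no region in either library, and the part of these values in the differences was not tested.

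The day 9 cells had regions that the effector list lacked. Of 6 Eomes regions called in all 8 day 9 libraries and both splenocyte libraries, 3 (-72.7, -61.6 and -24.5 kb) were not called in the effector library, against 21.1% of all such regions, and of 2 such Tbx21 regions none was missing. Regardless of the splenocytes, 2 of 2 Tbx21 and 4 of 7 Eomes regions called throughout day 9 were in the effector list, against 75.4% of all. Of these 9 regions 0 were missing from both splenocyte lists, against 6.04% of all regions called throughout day 9. At least 1 day 9 library held 4 of 5 naive Tbx21 and 11 of 13 naive Eomes regions, against 85.7% of all naive regions. The same was true of 3 of 5 effector Tbx21 and 4 of 6 effector Eomes regions, against 58.9% of all effector regions. Eomes -81.5 kb was higher in the day 9 mean than in the effector library, by a centred log2 difference of 1.46 (2.76-fold). It was the only 1 of 6 regions past 2-fold in that direction (5.23% of all 25916), and none was past 2-fold lower (4.68%). The other differences ran from -0.49 at Eomes -53.8 kb to 0.45 at Eomes +0.9 kb.

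Against the splenocytes, the day 9 mean was compared only at regions called in all 8 day 9 libraries. This leaves out Eomes -87.4 kb, at 71.4 in antigen-experienced cells, 56.5 in naive cells and 8.59 to 14.8 in 7 day 9 libraries. Of 9 regions compared with antigen-experienced cells, Tbx21 +19.0 kb was past 2-fold lower at day 9 (-1.53, 0.347-fold; 1.19% of all regions) and none was past 2-fold higher (7.53%). Of 8 regions compared with naive cells, 1 was past 2-fold higher at day 9, Eomes -61.6 kb (1.49, 2.80-fold). This count was close to the share over all regions (11.9%). None of the 8 was past 2-fold lower (1.47% of all). These comparisons share libraries with those above.

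**Figure D3:**
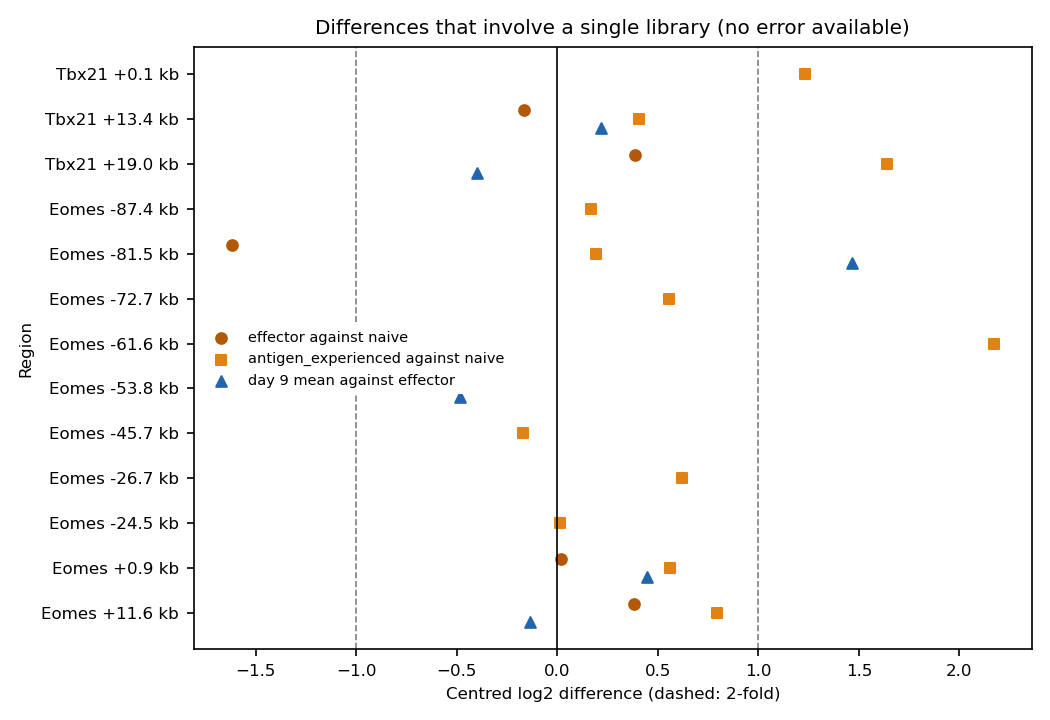
Centred log2 differences of regions for effector against naive, antigen-experienced against naive and day 9 mean against effector, with dashed lines at 2-fold. Eomes -81.5 kb was at -1.62 for effector against naive and at 1.46 for day 9 against effector, and Eomes -61.6 kb was at 2.17 for antigen-experienced against naive.

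Between the day 9 groups, 1 of the 9 regions tested differed. The regions tested were those called in all 8 day 9 libraries, 2 of the 9 Tbx21 regions and 7 of the 22 Eomes regions. The test was limma on centred log2(value + 1), with Benjamini-Hochberg adjustment over all 34383 such regions. Tbx21 +19.0 kb was higher in high_to_high than in low_to_low, at 15.4 ± 3.39 (SD, n = 2) and 9.55 ± 2.25 (SD, n = 3), with a log2 fold change of 0.93 ± 0.21 (SE) and an adjusted limma p of 0.0251. Across all regions 0.596% were called in this comparison and 0.558% were called higher. At an unadjusted p under 0.05 the limma count was 2 of 9, Tbx21 +19.0 kb and Eomes -24.5 kb, against 9.92% of all regions. The call was lost in limma fits without high_to_high replicate 1 (0.73, adjusted p = 0.294) or 2 (1.15, adjusted p = 0.0534), and without low_to_low replicate 2 (0.87, adjusted p = 0.161) or 3 (0.80, adjusted p = 0.146). With the in-peak share of tags as covariate the limma estimate was 0.53 ± 0.32, with an adjusted p of 0.991. Under that covariate limma called 0 of all 34383 regions. The in-peak share was 9.01 and 9.75% in high_to_high and 10.4 to 12.5% in low_to_low. With no overlap between them, this fit cannot tell the share from the group.

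Marker regions of other lineages were set beside this result. In the same comparison limma called 1 of 6 regions of CD4 and regulatory T cell markers, 26981 bp from Cd40lg (CD40 ligand), with a log2 fold change of 0.99 ± 0.20 (SE) and an adjusted limma p of 0.00962. The Cd40lg region was also called for YFP-high against YFP-low (0.98 ± 0.16, with a limma adjusted p of 0.00158) and for low_to_high against low_to_low (0.97 ± 0.18, with a limma adjusted p of 0.0265). Limma called 0 of 4 B cell, 0 of 11 natural killer cell and 0 of 8 myeloid marker regions in high_to_high against low_to_low. The median of all regions was also lower in high_to_high on deposited values. On those values B cell markers summed to 66.6 and 80.1 in high_to_high and 92.1 to 126 in low_to_low, with no region for Cd79a or Ms4a1. Natural killer cell markers summed to 322 and 341 in high_to_high and 390 to 450 in low_to_low. Myeloid markers summed to 141 and 134, against 154 to 185. The sums of CD4 and regulatory T cell markers overlapped, at 108 and 141 against 123 to 147. Those of the CD8 T cell markers were lower in high_to_high as well, at 265 and 289 against 317 to 385. The part of these values in the result was not tested.

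The cells that were low at day 3 and high at day 9 lay between at this region, at 11.4 ± 2.53 (SD, n = 3). Their values overlapped both other groups. Their log2 fold change was 0.40 ± 0.19 against low_to_low and -0.53 ± 0.21 against high_to_high (SE), with adjusted limma p of 0.874 and 0.923. For all 5 YFP-high libraries against the 3 YFP-low ones it was 0.62 ± 0.18, with an adjusted limma p of 0.182. That call was made by limma without low_to_high replicate 2 (0.74, adjusted p = 0.0433) and without low_to_low replicate 1 (0.81, adjusted p = 0.0346).

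None of the 9 regions was called by limma in the other day 9 comparisons. For YFP-high against YFP-low, 0 were called and 2 had an unadjusted p under 0.05, against 0.332% and 8.07% of all regions. For low_to_high against low_to_low the counts were 0 and 1, against 0.0320% and 5.56%. For low_to_high against high_to_high they were 0 and 1, against 0% and 5.09%. In the 4 comparisons the median log2 fold change of the 9 regions ran from -0.15 to -0.01, and that of all regions from -0.01 to 0.01. Standard errors of the 9 regions ran up to 0.21 on the log2 scale. When limma was also fitted on regions called in at least 2 libraries of each group compared, 16 regions were tested for YFP-high against YFP-low, 15 for high_to_high against low_to_low, 14 for low_to_high against low_to_low and 13 for low_to_high against high_to_high. Tbx21 +19.0 kb in high_to_high against low_to_low was again the single call, with a limma adjusted p of 0.0175. At the Tbx21 start, the fold change of YFP-high against YFP-low was 0.02 ± 0.16 at +0.1 kb and -0.03 ± 0.15 at +0.5 kb (SE), with adjusted limma p of 0.990 and 0.982.

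The Eomes regions -72.7, -61.6 and +11.6 kb had the highest deposited values of day 9 in YFP-low cells. Eomes -72.7 kb averaged 13.9 ± 1.20 in high_to_high (n = 2), 15.1 ± 0.569 in low_to_high (n = 3) and 20.8 ± 2.75 in low_to_low (SD, n = 3). For YFP-high against YFP-low its limma log2 fold change on centred values was -0.26 ± 0.13 (SE), with a Benjamini-Hochberg adjusted p of 0.591. Its centred libraries did not overlap between the YFP states, as for 2.48% of all regions in that direction. Tbx21 +13.4 kb did not overlap in the other direction, as for 3.00% of all regions. Eomes -61.6 kb had -0.24 ± 0.13 by limma in the same comparison, with a Benjamini-Hochberg adjusted p of 0.646. Eomes +11.6 kb had -0.26 ± 0.13 by limma in high_to_high against low_to_low, with a Benjamini-Hochberg adjusted p of 0.512. On deposited values all 3 regions were without overlap between the YFP states, which held for 18.2% of all regions in that direction. Eomes -24.5 kb went the other way, with 0.44 ± 0.20 (SE) by limma in high_to_high against low_to_low. Its unadjusted limma p was 0.0332 and its Benjamini-Hochberg adjusted p was 0.448.

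These values depend on centring, because the median region was itself lower in high_to_high than in low_to_low by a log2 difference of -0.30 on the deposited scale. Without centring, limma called 4 of the 9 regions in that comparison, Tbx21 +19.0 kb higher and Eomes -72.7, -61.6 and +11.6 kb lower. With centring, the 3 Eomes fold changes of that comparison were -0.26, -0.29 and -0.26, with adjusted limma p of 0.614, 0.562 and 0.512. The split over all regions was 192 higher and 13 lower with centring, and 149 higher and 7261 lower without it. Tbx21 +13.4 kb had centred limma fold changes of 0.10 ± 0.16 for high_to_high and 0.17 ± 0.14 for low_to_high, each against low_to_low, with Benjamini-Hochberg adjusted p of 0.889 and 0.956. Without centring these were -0.19 and -0.0036.

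**Figure D4:**
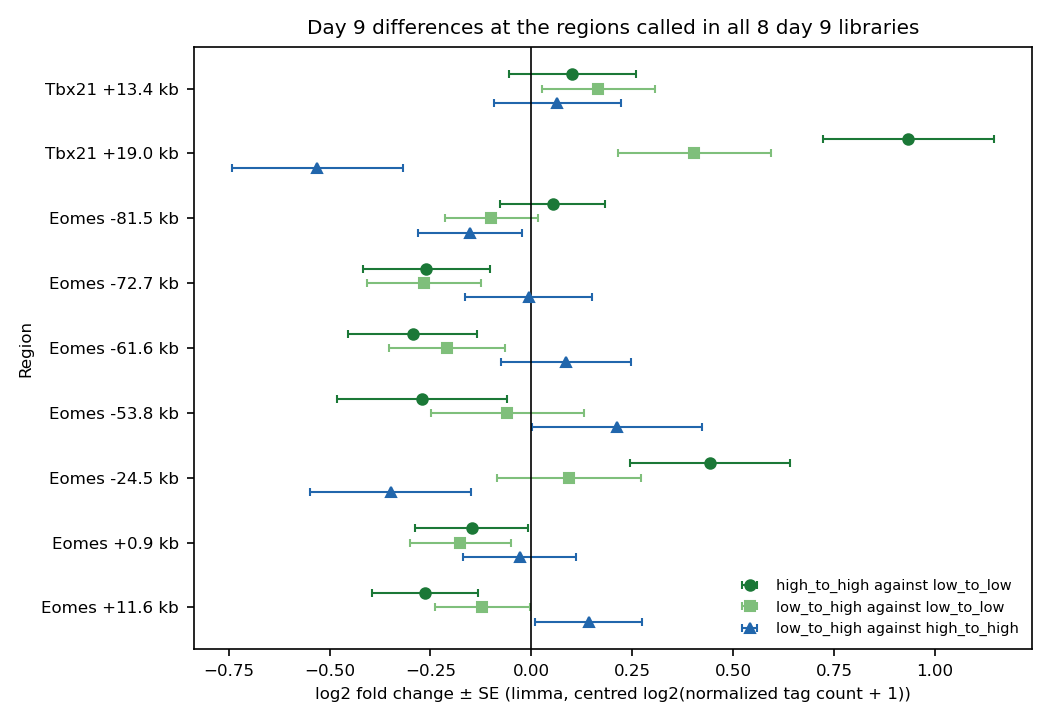
Log2 fold changes with SE from limma on centred log2(normalized tag count + 1) for the 9 regions called in all 8 day 9 libraries, in 3 comparisons. Tbx21 +19.0 kb stood at 0.93 for high_to_high against low_to_low and at -0.53 for low_to_high against high_to_high, while the Eomes regions lay between -0.35 and 0.44.

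Summed on the deposited scale over the regions called in all 11 libraries, both loci were highest in antigen-experienced and lowest in effector cells. Effector cells were nevertheless highest for Tbx21 when sums over every called region were centred, which include 2 regions called in effector cells alone. On the deposited scale the median of all shared regions differed as well. For the day 9 mean it was -0.59 in log2 against antigen-experienced cells and 0.42 against effector cells. For high_to_high against low_to_low it was -0.30, over the regions called throughout day 9. For Tbx21 (2 regions) the order was antigen-experienced cells at 82.4, naive cells at 34.2, high_to_high at 30.5 ± 3.75 (n = 2), low_to_high at 28.7 ± 1.79 (n = 3), low_to_low at 27.0 ± 3.65 (SD, n = 3) and effector cells at 21.6. The 3 day 9 groups did not differ beyond their spread, and the naive value lay 1 SD above the high_to_high mean. For Eomes (3 regions) the order was antigen-experienced cells at 155, low_to_low at 102 ± 13.1 (n = 3), naive cells at 98.0, low_to_high at 82.6 ± 6.27 (n = 3), high_to_high at 76.8 ± 5.59 (SD, n = 2) and effector cells at 45.3. Naive cells lay within the spread of low_to_low, and the high_to_high mean lay within 1 SD of the low_to_high mean, which was itself just past 1 SD above high_to_high.

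Sums over every called region changed the place of the effector library for Tbx21 but not for Eomes. Tbx21 summed to 75.3 in effector cells over 5 regions covering 865 bp, against 66.8 in naive cells over 5 regions covering 665 bp. Eomes summed to 65.4 in effector cells over 6 regions covering 1038 bp, against 261 in naive cells over 13 regions covering 1729 bp. On the centred log2 scale the effector library had the highest Tbx21 sum over called regions of all 11 libraries (0.05) and the naive library the lowest (-0.80), while for Eomes the effector library was lowest (-0.15) and the antigen-experienced library highest (1.48). The mean per called region was 15.1 and 13.4 for Tbx21, and 10.9 and 20.1 for Eomes, in effector and naive cells.

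Over the 11 libraries the centred log2 sums of the loci had a Pearson r of -0.29 with each other, and over the 8 day 9 libraries of 0.50. The genes compared were 6367 with at least 5 regions, of which at least 1 was called in all 11 libraries. The sums most like Tbx21 were those of S1pr3 (r = 0.91), Ppp1r14c (0.88), Cmc1 (0.85), Ip6k2 (0.84) and Rhob (0.84). The sums most like Eomes were those of Cerk (r = 0.99), Arhgef33 (0.98), Rnf138 (0.97), Tmem242 (0.97) and Zfp592 (0.97). The Eomes sum was -0.15 in the effector library and 1.01 to 1.48 in the other libraries. These 5 genes were lowest in the effector library too, so their r with Eomes lean on 1 library. Over the day 9 libraries alone r ran from 0.73 to 0.91 for the first 5 genes and from 0.19 to 0.85 for the others. All of these sums come from the same libraries and share their depth and peak calls.

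Genes known as targets of T-bet or Eomes were compared in the same way. Of 41 regions of 13 target genes shared by effector and naive cells, 14 were past 2-fold higher and 5 lower (median 0.53, with the median of all shared regions at 0 by centring), against 14.6% and 6.10% of all shared regions. For antigen-experienced against naive cells, 14 of 69 regions of 15 genes were past 2-fold higher and 0 lower (median 0.37), against 3.69% and 1.07% of all. A region inside Ifng, the interferon-gamma gene, was at 36.2 in effector, 70.7 in antigen-experienced and 11.9 in naive cells. Another region, 21608 bp from Ifng, went the other way in effector cells, at 13.1 in effector, 97.1 in antigen-experienced and 71.2 in naive cells. A region near Cxcr3, a chemokine receptor of effector and memory cells, was at 14 in effector, 47.7 in antigen-experienced and 6.13 in naive cells. A region near Prf1, the perforin gene, was at 10.7 in effector and 79.2 in naive cells.

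The regulators upstream of the T-box genes were mixed. Of 90 regions of 18 regulator genes shared by effector and naive cells, 19 were past 2-fold higher and 14 lower (median -0.29), against 14.6% and 6.10% of all. Inside Stat4, the transducer of interleukin-12 signals, a region was at 17.8 in effector, 51.6 in antigen-experienced and 4.66 in naive cells. Another Stat4 region, not called in antigen-experienced cells, was at 39 in effector and 4.8 in naive cells. Elsewhere inside Stat4, regions past 2-fold lower were at 17.4 in effector and 62.6 in naive cells, and at 12.3 in effector and 68.5 in naive cells. Inside Il12rb2, the receptor chain for that cytokine, a region was at 30.2 in effector, 13.8 in antigen-experienced and 5.06 in naive cells. For antigen-experienced against naive cells, 7 of 173 regulator regions were past 2-fold higher and 1 lower (median 0.05), against 3.69% and 1.07% of all. The other T-box family genes had 3 of 17 regions past 2-fold higher and 0 lower in effector against naive cells, beside the same 14.6% and 6.10% of all.

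At day 9, limma called 1 of 66 target regions and 1 of 124 regulator regions, both higher in high_to_high than in low_to_low, against 0.596% of all regions. The first lay inside Zeb2 (chr2:45017270-45017504), which encodes a repressor that acts with T-bet in effector cells, with a limma log2 fold change of 0.90 ± 0.18 (SE) and a Benjamini-Hochberg adjusted p of 0.00738. The second was a region of Bach2, a repressor that restrains effector differentiation, with a limma log2 fold change of 0.61 ± 0.15 (SE) and a Benjamini-Hochberg adjusted p of 0.0417. Neither was called with the in-peak share of tags as covariate, where no region of the 34383 was. None of these regions was called by limma in the other 3 comparisons, and none of the 15 regions of other T-box genes was called in any of the 4. Unadjusted p under 0.05 was reached by 5 to 9 target, 2 to 7 regulator and 0 to 1 other T-box regions over the 4 comparisons, against 5.09 to 9.92% of all regions.

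The 100 kb limit bounds the Eomes series. The member nearest to the limit, Eomes -96.1 kb (chr9:118382032-118382204), lay 95982 bp from the gene and was called in the effector library alone, at 7.52. The nearest region beyond it (chr9:118374794-118375021), 103165 bp away, was called in all 11 libraries. It measured 37.8 and 35.3 in high_to_high, 39.6, 51.1 and 38.6 in low_to_high, 41.8, 44.1 and 40.6 in low_to_low, 29.5 in effector, 77.8 in antigen-experienced and 11.6 in naive cells.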

How the data were processed

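Sorted cells were profiled by ATAC-seq in 11 libraries. Per the submitters' processing notes, Bowtie2, HOMER 4.10, DESeq2 and build mm10 were used, with no role given for DESeq2. The authors deposited HOMER peak lists, made for each library alone, per the file headers. These give the limits as a false discovery rate (0.001), 4-fold enrichment over a local area of 10 kb and a local p of 1e-04. The signal used is the normalized tag count, scaled by the authors to 10 M tags per library, per the file headers. Peaks spanned 172 bp, but 132 bp for naive cells and 136 bp for high_to_high replicate 2. The lowest listed values were 2.25 to 4.32, and 36.4 to 53.3% of putative peaks had been removed by the local filter. No intervals from counting error are given.

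A region took its strongest peak in each library. The limma package 3.58.1 (R 4.3.3, with a trended prior) was fitted on centred log2(value + 1), with calls at a Benjamini-Hochberg adjusted p under 0.05. YFP-high against YFP-low was a comparison of 5 and 3 libraries, and the other day 9 comparisons came from 1 model of 3 groups. The script was tested on simulated data. Single libraries were compared by a 2-fold limit, with no test. Same-numbered low_to_high and low_to_low libraries deviated together (correlations 0.298, 0.136 and 0.161), while those of high_to_high did not. The main fits did not use this possible pairing, so their p-values ignore it. An alternative fit with a replicate block used the number for every day 9 library, those of high_to_high included. The genes and lists were chosen with earlier results of these data known. Values in every library are given for the start-site regions, the regions called in all 11 libraries, those called by a test or with the lowest p, the strongest regions of 1 group, and the largest effector differences. Distal regions are given by position, since genome sequence was not used here. Trac was not in the gene table used.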

Additional observations from a re-analysis of the deposited data

Results flagged for a closer look

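At Eomes -61.6 kb, high_to_high replicate 1 was at 12.2, apart from the other 4 YFP-high libraries of day 9, which were at 15.9 to 17.3. The gap to the nearest of them was 0.725 of the range of the 5 libraries, above the critical value of Dixon's test (0.71). The check used deposited values and took high_to_high and low_to_high together. On the centred log2 scale this library was at 3.88 and the other 4 at 4.14 to 4.28, and the check was not run there. Of the 9 regions checked in these libraries 1 was found, and chance alone gives about 1 in 20 for each region checked.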

How the results depend on the processing

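Over the alternatives, 104 of 118 count results stayed within 1.5 times the reported count. That tally includes comparisons with a count of 0 in both settings, and a setting that repeats the main assignment. It therefore does not measure how stable the call at Tbx21 +19.0 kb is. Without centring, 1 region was called for YFP-high against YFP-low and 4 for high_to_high against low_to_low, where the main counts were 0 and 1 (over all 34383 regions 2022 and 7410 were called, against 114 and 205), and Tbx21 +13.4 kb changed sign to -0.0779 for YFP-high against YFP-low, and to -0.19 for high_to_high and -0.0036 for low_to_high, each against low_to_low. The count for high_to_high against low_to_low was 0 with the in-peak share of tags as covariate, where 0 of all regions were called. That share did not overlap between the YFP states, so share and state cannot be told apart there. The count was also 0 with peaks of at least 10 only, where Tbx21 +19.0 kb was not tested. Leaving out 1 library gave 0 to 1 called regions for both of these comparisons. Limiting assignment to 50 kb gave 12 Eomes regions and left 0 regions past 2-fold for effector against naive and for day 9 against effector, since Eomes -81.5 kb lies beyond it. Peaks of at least 10 gave 14 Eomes regions. With the replicate block, limma called 0, 1, 0 and 0 of the 9 regions in the 4 comparisons, which changed no call at either gene. The calls over all regions were 213, 374, 55 and 4, against 114, 205, 11 and 0 without the block. All these counts follow the order YFP-high against YFP-low, high_to_high against low_to_low, low_to_high against low_to_low and low_to_high against high_to_high. Regions below the lowest listed values, or filtered locally, are missing from the lists, and libraries of 20.8 M tags list fewer weak regions than those of 59.97 M.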
